A study of Rattus norvegicus with 12 samples.

Results

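The comparison described here sets the choroid of rats at postnatal day 14 (P14) with oxygen-induced retinopathy (OIR) beside the choroid of controls of the same age (CTL). It rests on 2 of the 12 small RNA libraries of the series, chosen by their labels for tissue, age and condition. OIR pups, of the Sprague Dawley strain, were raised from about birth in oxygen that alternated each day between high and low, up to P14, and CTL pups in room air. P14 was therefore the end of the oxygen exposure. Each library was made from 5 pooled choroids, so it gives 1 value a group, and no replicate shows how much choroids of 1 group differ from each other. All intervals below cover counting error only, no test between the groups was possible and no p-value is given. The animals' sex is not given in the sources used here, and the same libraries hold whatever cells came with the dissected choroid.

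The choroid is the vascular layer behind the retina, lined on its retinal side by the pigment epithelium. A miRNA is a short RNA that pairs, mainly through bases 2 to 8 (its seed), with target mRNAs and represses them. It is cut from a hairpin that has a 5p and a 3p arm, of which 1 is usually kept (the major arm) and the other mostly lost (the minor arm). Levels of cell-type miRNAs in a tissue pool reflect both the number of cells of that type and the RNA in each, and these cannot be told apart.

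The sequences below are those on which the description turns. The miR-183 cluster, expressed in photoreceptors and other sensory cells, and the neuronal miR-9a were among the most abundant miRNAs that were higher in OIR. miR-210-3p is induced by hypoxia. miR-205 and miR-203a-3p are both epithelial and stood on opposite sides. let-7b-5p and let-7f-5p share a seed, as do miR-206-3p and miR-1-3p of muscle, and differed in their ratio. miR-126a-3p, the endothelial miRNA, led both libraries. miR-32-3p and miR-489-5p had the largest changes of arm. Sequences are mature RNAs of the RefSeq annotation of build GRCr8, where 648 of the 720 compared miRNAs were matched by name, with the seed in capitals.
miR-182: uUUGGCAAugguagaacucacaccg
miR-96-5p: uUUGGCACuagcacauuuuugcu
miR-183-5p: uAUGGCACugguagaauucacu
miR-9a-5p: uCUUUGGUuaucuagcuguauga
miR-126a-3p: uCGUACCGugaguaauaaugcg
miR-210-3p: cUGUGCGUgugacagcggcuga
miR-205: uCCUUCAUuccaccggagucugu
miR-203a-3p: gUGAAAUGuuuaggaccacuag
let-7b-5p: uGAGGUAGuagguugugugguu
let-7f-5p: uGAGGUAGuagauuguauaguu
miR-206-3p: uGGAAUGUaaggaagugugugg
miR-1-3p: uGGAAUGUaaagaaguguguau
miR-32-5p: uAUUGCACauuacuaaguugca
miR-32-3p: gCAAUUUAgugugugugauauu
miR-489-5p: uGUCGUAUgcgugaugacacguuc
In GRCr8, miR-182 lies at chr4:59752249-59752273, miR-96-5p at chr4:59755901-59755923 and miR-183-5p at chr4:59756106-59756127, all on the minus strand, so that these hairpins form 1 cluster. miR-9a-5p has 3 loci. miR-126a-3p lies at chr3:29813219-29813240, miR-203a-3p at chr6:137020756-137020777, let-7b-5p at chr7:118684044-118684065 and miR-206-3p at chr9:30590747-30590768, on the plus strand. miR-210-3p (chr1:205755946-205755967), miR-205 (chr13:107564588-107564610), miR-489-5p (chr4:32648099-32648122) and both arms of miR-32 (chr5:76391328-76391349 and chr5:76391288-76391309) are on the minus strand.

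The CTL library had 18692653 total reads and 9033745 miRNA UMIs, the molecular tags that remove PCR copies. The OIR library had 16855151 reads and 9211931 miRNA UMIs. The level of a miRNA is given as UMIs per 1000000 miRNA UMIs of its library (RPM), and the ratio is always OIR over CTL, with its 95% counting interval in parentheses. A miRNA was compared when it had at least 20 UMIs in 1 of the 2 libraries, which 720 did. One under 10 UMIs is not listed in the files and was set to 10, so that its ratio is a bound. With the study's threshold, "above" means a ratio over 1.2 and "below" a ratio under 0.8.

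The CTL library stood apart from the other choroid libraries, and every ratio below rests on it. tRNA made up 10.1% of its listed UMIs, against 3.74% in the OIR library and 1.07% to 3.47% in the other choroid libraries. Of the 720 miRNAs, 397 (55.1%) had their highest level of the 6 choroid libraries there, against 27 (3.75%) in the P14 OIR choroid. The 720 were kept by their UMIs in the 2 P14 choroid libraries alone, which favours these 2, mostly at low levels. Of the 87 at or over 1000 RPM in either, 26 (29.9%) were highest in CTL and 4 (4.6%) in OIR. A second scaling was therefore set beside RPM, the trimmed mean of M values (TMM), which assumes that most miRNAs do not differ between the libraries. It multiplies every OIR to CTL ratio by 1.31, a shift of 0.39 on the log2 scale. The endothelial miR-126a-3p was first in both libraries, and miR-204-5p of the pigment epithelium had at least 16410 RPM. The 6 endothelial miRNAs described below summed to 111818 RPM in CTL and 114389 RPM in OIR, against 12434 and 11359 RPM in the P14 retinas. Those of the pigment epithelium set the tissues less apart, at 22345 and 19289 RPM against 13355 and 10406 RPM. A TMM ratio is named as such wherever it is given, and ratios of 2 miRNAs within a library depend on neither scaling.

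By RPM, 82 of the 720 miRNAs (11.4%) were above and 419 (58.2%) below. By TMM the counts were 212 (29.4%) above and 231 (32.1%) below. Because TMM raises every ratio by the same factor, the 82 above by RPM and the 231 below by TMM are necessarily so in both scalings. A ratio under 1 by RPM and over 1 by TMM was found for 184 miRNAs. For these 184, whether the level is called higher or lower depends on the scaling. The study calls a miRNA highly expressed over 1000 RPM, with RPM taken over total reads. On the scale used here, which gives higher values, 86 miRNAs had at least 1000 RPM in CTL, of which 16 were above and 30 below by RPM, and 42 and 7 by TMM.

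**Figure D1:**
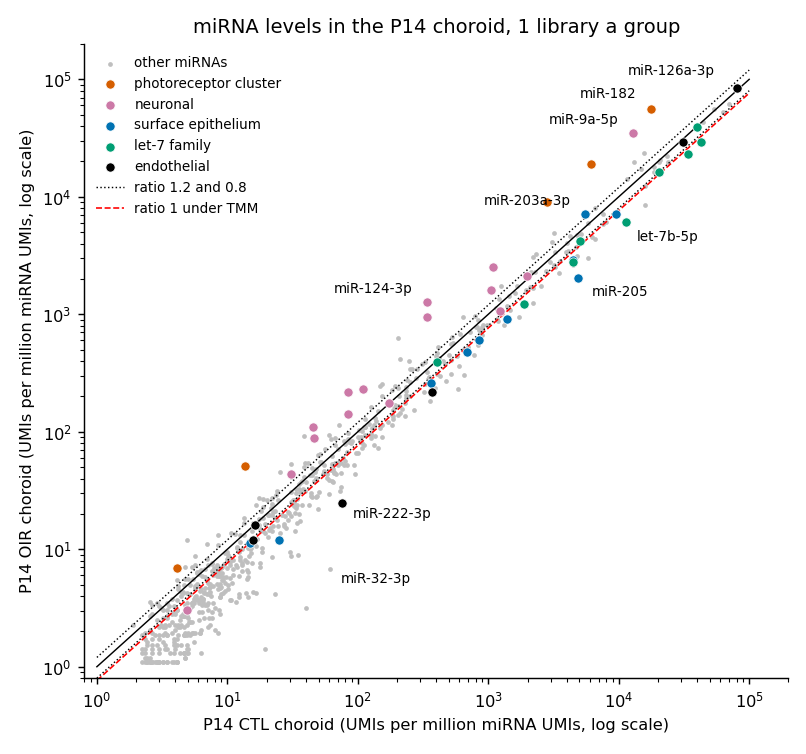
Level of each compared miRNA in the P14 CTL choroid (x axis) and the P14 OIR choroid (y axis), in RPM on log scales, 1 library each; colours mark 5 lists, the solid line a ratio of 1, dotted lines 1.2 and 0.8, the dashed line equality under TMM. The photoreceptor and most neuronal miRNAs lie above the lines, and the cloud falls away from the solid line at low levels, where an unlisted miRNA sits at its bound of 10 UMIs.

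The miRNAs of retinal neurons and photoreceptors were higher in the OIR choroid. miR-182 stood at 17584 RPM in CTL and 56227 RPM in OIR, from 158848 and 517958 UMIs, and moved from the 17th to the 4th most abundant miRNA. Its ratio was 3.20 (3.18 to 3.22), or 4.18 by TMM. Its cluster partners had nearly the same ratio, with miR-96-5p at 2834 and 9078 RPM (3.20) and miR-183-5p at 6121 and 18899 RPM (3.09). The minor arm miR-183-3p, at 13.7 and 50.8 RPM, had a ratio of 3.70 (3.03 to 4.55), and miR-96-3p, from 37 and 64 UMIs, one of 1.70 (1.11 to 2.62). All 5 members of the list were above by RPM, and so necessarily by TMM. Their median log2 ratio was 1.68, against -0.44 over all 720 miRNAs. Together they took 2.66% of the miRNA UMIs in CTL and 8.43% in OIR. The ratio of miR-182 to miR-183-5p inside a library differed little between the libraries, at 2.87 in CTL and 2.98 in OIR.

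Among 15 neuronal miRNAs, 11 were above and 1 was below by RPM, beside 11.4% and 58.2% of all 720 miRNAs. Their median log2 ratio was 0.96 (1.34 by TMM). miR-124-3p, the most neuron-specific of them, had 3069 UMIs (340 RPM) in CTL against 11828 (1284 RPM) in OIR. This was the highest ratio among miRNAs at or over 1000 RPM in either library, 3.78 (3.63 to 3.93). miR-9a-5p, a regulator of neural progenitors, stood at 12919 and 34753 RPM (2.69) and its other arm miR-9a-3p at 1094 and 2518 RPM (2.30). miR-9b-3p (2.79), miR-124-5p (2.59), miR-137-3p (2.42), miR-129-5p (2.13), miR-153-3p (1.94), miR-138-5p (1.67), miR-7a-5p (1.51) and miR-132-3p (1.44) made up the rest of those above. The 4 other members were not above: miR-218a-5p (1.07), miR-219a-5p (1.02), miR-128-3p (0.863) and miR-212-3p, which was below at 0.624 but rested on 44 and 28 UMIs.

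Retina-enriched miRNAs were then taken from the P17 CTL libraries, which the comparison does not use, as those at least 4-fold higher in retina than in choroid and at 100 RPM or more in retina. Of these 33, 31 were higher in the OIR library and 30 above by RPM, beside 153 and 82 of all 720 miRNAs. All 33 were above by TMM, beside 29.4% of all. The set overlaps the lists above, as 14 of the 33 are photoreceptor or neuronal members already described. Their summed share of the miRNA UMIs was 4.85% in CTL and 13.5% in OIR, beside 56.1% and 59.0% in the P14 CTL and OIR retinas. Most of the rise in this share came from the major arms of the miR-183 cluster and from miR-9a-5p. The share is therefore largely the same result as theirs, and not a separate one. In the other choroid pools the share was 35.6% (P7 CTL), 14.3% (P7 OIR), 4.68% (P17 CTL) and 4.25% (P17 OIR). The P14 OIR pool thus lay near the P7 OIR pool, and the P14 CTL pool near both P17 pools.

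Set beside the level in the P14 OIR retina, the difference between the choroid libraries was 14.1% of it for miR-182, 13.5% for miR-9a-5p, 17.9% for miR-183-5p, 21.6% for miR-96-5p and 29.3% for miR-124-3p. Over the 33 miRNAs the median was 12.4%, with quartiles of 6.91% and 16%. At the other end, miR-873-5p, at 55 and 52.2 RPM (ratio 0.949), and miR-130b-3p, at 85.3 and 81.1 RPM (0.95), were lower in OIR, with intervals that include 1. Next was miR-190b-5p, at 420 and 421 RPM. In the P14 retinas miR-190b-5p was at 5240 RPM in CTL and 1914 RPM in OIR. Some miRNAs that were above in the OIR choroid were also lower in the OIR retina. These included miR-124-3p (5500 and 3218 RPM), miR-96-5p (48766 and 28843 RPM) and miR-183-5p (88464 and 71556 RPM). Others, such as miR-182 (207468 and 273795 RPM) and miR-9a-5p (154231 and 161496 RPM), were higher there. How much retinal tissue or RNA each choroid pool held was not measured, and its part in the result was not tested.

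**Figure D2:**
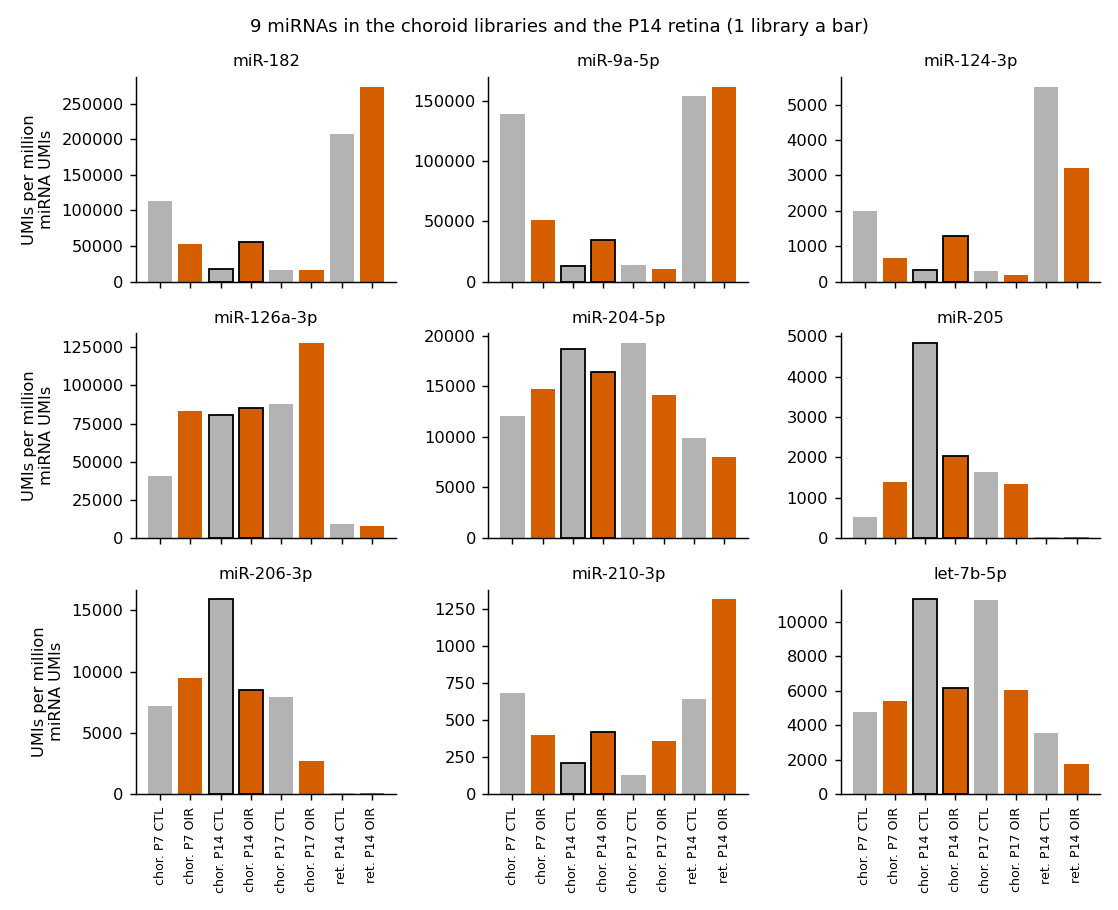
RPM (y axis, from 0, own scale in each panel) of 9 miRNAs in the 6 choroid libraries and the 2 P14 retina libraries (x axis), grey for CTL and orange for OIR, with the P14 choroid bars outlined; 1 library a bar. miR-182, miR-9a-5p and miR-124-3p were 3.20, 2.69 and 3.78 times higher in the P14 OIR than the P14 CTL choroid, while miR-205 and miR-206-3p were highest in the P14 CTL choroid.

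Of 6 endothelial miRNAs, 5 had ratios under 1 by RPM, with 3 below and none above. This was near the share of all 720 miRNAs, of which 567 had ratios under 1 and 58.2% were below. By TMM 2 endothelial miRNAs were below and 3 above, beside 32.1% and 29.4% of all. The median log2 ratio was -0.23 by RPM, against -0.44 over all miRNAs, and 0.16 by TMM. miR-126a-3p, which sustains vessel integrity through VEGF signalling, was the most abundant miRNA of both libraries at 80499 RPM in CTL and 85023 RPM in OIR, a ratio of 1.06 (1.05 to 1.06), or 1.38 by TMM. Its other arm miR-126a-5p was at 30837 and 29096 RPM (0.944). miR-221-3p and miR-222-3p, which share a seed and restrain KIT and endothelial migration, were both lower: 373 and 217 RPM (0.580) for the first, 75.8 and 24.6 RPM (0.325, 0.278 to 0.378) for the second. Both stayed below by TMM, at 0.759 and 0.425. The minor arm miR-221-5p, with 141 and 111 UMIs, was below by RPM only (0.772, and 1.01 by TMM). Within a library, miR-126a-3p over miR-143-3p, a marker of smooth muscle, was 1.27 in CTL and 1.62 in OIR.

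Mesenchymal and mural miRNAs, those of fibroblasts, pericytes and smooth muscle, were 5 of 9 below and none above by RPM, about the share of all miRNAs (58.2% below), and 3 of 9 below by TMM. The median log2 ratio of -0.35, against -0.44 over all miRNAs, turned to 0.04 by TMM. miR-145-5p, which keeps smooth muscle contractile, went from 2209 RPM in CTL to 1249 RPM in OIR (0.565, and 0.740 by TMM). Its cluster partner miR-143-3p was nearer to 1, at 63147 and 52358 RPM (0.829, and 1.09 by TMM), and so was miR-199a-3p at 70281 and 62065 RPM (0.883, and 1.16 by TMM). miR-143-5p (0.598) and miR-214-5p (0.323, from 79 and 26 UMIs) are minor arms.

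Of the pigment epithelium miRNAs, miR-204-5p was at 18728 RPM in CTL and 16410 RPM in OIR (0.876) and miR-211-5p at 3539 and 2842 RPM (0.803). By TMM both were over 1, at 1.15 and 1.05. Their seed is shared, and both sustain epithelial differentiation. Their minor arms were lower in either scaling: miR-204-3p from 162 to 70 UMIs (0.424) and miR-211-3p from 542 to 273 UMIs (0.494).

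The surface epithelium list, with miRNAs of corneal, conjunctival and skin epithelium, was 9 of 10 below and 1 above by RPM, where 58.2% of all 720 miRNAs were below, and 2 below and 1 above by TMM (median log2 ratio -0.51, and -0.12 by TMM). miR-205, which marks stratified epithelium, was at 4836 RPM in CTL against 2025 RPM in OIR. This was the lowest ratio at or over 1000 RPM, 0.419 (0.412 to 0.426), or 0.548 by TMM. miR-203a-3p, induced as such epithelium differentiates, went the other way, from 5535 to 7084 RPM (1.28, or 1.67 by TMM). The ratio of miR-205 to miR-203a-3p in a library therefore moved from 0.874 in CTL to 0.286 in OIR. In the miR-200 family, which holds epithelial cells together by repressing ZEB factors, miR-200a-3p (0.660), miR-200b-3p (0.698), miR-200c-3p (0.711), miR-141-3p (0.655) and miR-429 (0.709) lay close to each other, and between 0.857 and 0.931 by TMM. The summed level of the list was 27707 RPM in CTL and 21410 RPM in OIR, against 3220 to 22628 RPM in the other choroid libraries, so the P14 CTL pool was the richest in these miRNAs. The part of surface tissue in these ratios was not tested. In the ciliated epithelium list, of the miR-34 and miR-449 families, 4 of 6 were below and none above by RPM (median log2 ratio -0.39, against -0.44 over all miRNAs), and 2 below and 1 above by TMM (median 0.00), with miR-34c-5p at 722 and 720 UMIs (0.978) and miR-34c-3p at 57 and 12 UMIs (0.206).

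Striated muscle miRNAs were 4 of 8 below and 1 above by RPM, close to the share of all miRNAs (58.2% below), and 2 below and 3 above by TMM. Their median log2 ratio was -0.31 by RPM and 0.08 by TMM, and the members differed from each other. miR-206-3p, of skeletal muscle and its regeneration, was at 15902 RPM in CTL and 8467 RPM in OIR (0.532, or 0.697 by TMM). miR-1b was at 20432 and 19937 RPM (0.976). miR-1-3p was at 7941 and 6078 RPM (0.765), and the shared entry of miR-133a-3p with miR-133b-3p at 3476 and 2236 RPM (0.643). miR-499-5p, of slow muscle and heart, was at 283 and 340 RPM (1.2). The ratio of miR-206-3p to miR-1-3p was 2.00 in CTL and 1.39 in OIR. How reads were shared between miR-1-3p and miR-1b, which have similar sequences, is uncertain.

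Erythroid and leukocyte miRNAs had list medians near 0 by RPM, at 0.02 and 0.03 on the log2 scale, and 0.41 and 0.42 by TMM. The median over all 720 miRNAs was lower, at -0.44 by RPM and -0.05 by TMM. By RPM 2 of 4 erythroid miRNAs were above and 1 below, beside 11.4% and 58.2% of all. Of 6 leukocyte miRNAs 1 was above and 2 were below, with a lowest ratio of 0.647. In the erythroid list miR-144-3p (1.27) and miR-144-5p (1.31) were above while miR-486 (0.768) was below and miR-451-5p, matured without Dicer, stood at 0.814. Their levels were 38.8 to 71.6 RPM in either library. Of the leukocyte miRNAs, miR-142-3p, found throughout blood cells, was at 2310 and 3250 RPM (1.41), the myeloid miR-223-3p at 1154 and 1133 RPM (0.981), the lymphoid miR-150-5p at 321 and 216 RPM (0.674), and the macrophage-induced miR-155-5p at 252 and 266 RPM (1.06). miR-142-3p relative to miR-126a-3p was 0.0287 in CTL and 0.0382 in OIR.

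miR-210-3p, the miRNA most strongly induced by hypoxia through HIF-1, was at 211 RPM in CTL and 418 RPM in OIR, from 1909 and 3851 UMIs. The ratio was 1.98 (1.87 to 2.09), or 2.59 by TMM. It is also retina-enriched by the P17 libraries, with 1319 RPM in the P14 OIR retina. It was also higher in OIR in the P17 choroid (131 and 361 RPM), and in the retinas at P14 (643 and 1319 RPM) and P17 (843 and 1288 RPM). In the P7 choroid it was lower (687 and 401 RPM). Its minor arm miR-210-5p, the other member of the hypoxia list, had 53 and 34 UMIs (0.629).

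**Figure D3:**
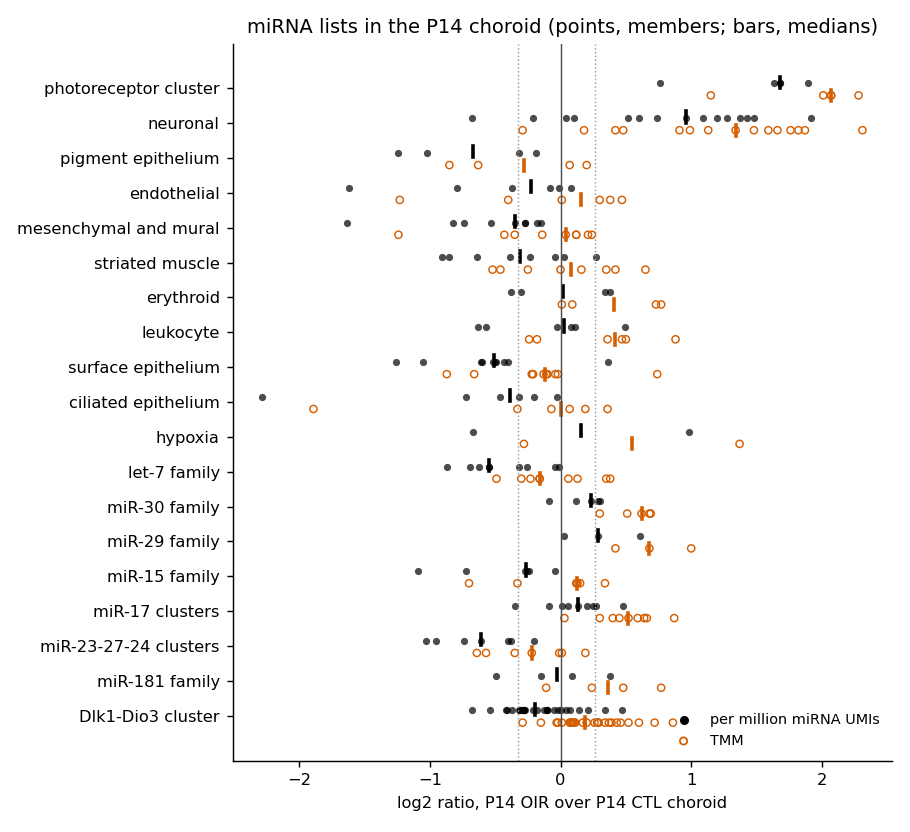
log2 ratio of OIR over CTL in the P14 choroid (x axis) for the members of 19 miRNA lists (y axis), filled points by RPM and open points by TMM; short bars are list medians, dotted lines mark 1.2 and 0.8. The photoreceptor list has a median of 1.68 and the neuronal list of 0.96; the surface epithelium, let-7 and miR-23-27-24 lists have medians of -0.51, -0.55 and -0.61.

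The let-7 family, which promotes differentiation, was lower by RPM, to different degrees. All 9 members, which share the seed GAGGUAG, had ratios under 1 by RPM, as did 567 of all 720 miRNAs, and 6 of them were below, beside 58.2% of all. let-7b-5p went from 11300 to 6163 RPM (0.545), let-7e-5p from 4467 to 2770 RPM (0.620), let-7d-5p from 1890 to 1234 RPM (0.653), let-7c-5p from 33937 to 23189 RPM (0.683) and let-7i-5p from 43088 to 29508 RPM (0.685). let-7f-5p, the most abundant member in OIR, stood at 39538 and 39320 RPM (0.994), and miR-98-5p at 408 and 396 RPM (0.971). By TMM 1 member was below and 2 above, so that the direction of the family depends on the scaling. The ratio of let-7b-5p to let-7f-5p, which does not, was 0.286 in CTL and 0.157 in OIR. let-7 members differ by few bases, and how their reads were shared is uncertain.

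The miR-23-27-24 clusters, active in vessels and in muscle, were 6 of 7 below by RPM, beside 58.2% of all miRNAs, and 3 of 7 by TMM, where 2 members had ratios over 1. miR-24-3p was at 5845 RPM in CTL and 3017 RPM in OIR (0.516, or 0.676 by TMM), while miR-27a-3p (0.871) and miR-27b-3p (0.769), its cluster partners, were less reduced. The miR-15 family, which halts the cell cycle, ran from 0.470 for miR-497-5p (647 and 304 RPM) and 0.608 for its cluster partner miR-195-5p to 0.969 for miR-16-5p (44525 and 43161 RPM). Families on the other side were small in their differences by RPM. The miR-30 family, whose members restrain autophagy and fibrosis, had miR-30a-5p (1.23), miR-30d-5p (1.23) and miR-30e-5p (1.17). The miR-29 family, which represses collagens, had miR-29b-3p (1.22) and miR-29c-3p (1.53). By RPM 2 of 5 miR-30 members (lowest 0.94) and 2 of 3 miR-29 members (lowest 1.02) were above, beside 11.4% of all miRNAs. None was below. By TMM all 5 and all 3 were above, beside 29.4% of all. miR-29c-3p is retina-enriched, with 13685 RPM in the P14 OIR retina. Of the miR-17 clusters, which drive proliferation, miR-106b-5p (1.40) and miR-20a-5p (1.21) were above, and miR-93-5p (0.783) was below. In the miR-181 family, which tunes T-cell receptor signalling, miR-181b-5p (1.30) was above and miR-181c-5p (0.710) below. By TMM 8 of 9 miR-17 members and 2 of 4 miR-181 members were above, and none below.

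Of 28 members of the Dlk1-Dio3 cluster, imprinted and expressed from the maternal allele, 2 were above and 5 below by RPM, a smaller share below than the 58.2% of all miRNAs, and 12 were above and none below by TMM. Its median log2 ratio was -0.20 by RPM and 0.19 by TMM, so the direction of the cluster depends on the scaling. miR-411-5p went from 2205 to 3058 RPM (1.39) and miR-323-3p from 193 to 244 RPM (1.26). miR-379-5p, next to miR-411-5p in the cluster, was at 4017 and 4012 RPM (0.999). The lowest were miR-485-5p (0.623) and miR-127-3p (0.689).

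Other miRNAs at or over 1000 RPM that were highest or lowest were miR-101a-3p, at 15736 and 23800 RPM (1.51), miR-21-5p, which is induced in fibrosis and inflammation, at 13082 and 19633 RPM (1.5), and miR-340-5p at 1248 and 1736 RPM (1.39). On the lower side stood miR-138-2-3p at 1720 and 940 RPM (0.546), miR-140-3p, of cartilage, at 4429 and 2652 RPM (0.599) and the p53 target miR-34a-5p at 1313 and 808 RPM (0.615). Below in both scalings at this level were 7 miRNAs: miR-205, miR-24-3p, miR-206-3p, let-7b-5p, miR-138-2-3p, miR-145-5p and miR-140-3p.

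Of 128 miRNAs from 100 to 1000 RPM, 23 were above and 47 below by RPM, and 55 and 14 by TMM. The highest, beside neuronal ones and miR-210-3p, were miR-3553 (205 and 625 RPM, 3.05) and miR-369-5p (149 and 246 RPM, 1.65). The lowest were miR-31a-5p, from 591 to 229 RPM (0.388, or 0.508 by TMM), miR-497-5p, miR-339-5p (0.508), miR-3068-3p (0.512), miR-351-5p (0.573), miR-185-5p (0.575), miR-503-5p (0.580) and miR-221-3p. miR-351-5p and miR-503-5p are of 1 cluster on the X chromosome. Of these low ones, miR-31a-5p was at no more than 252 RPM in the 4 choroid libraries of other ages, nearer the P14 OIR than the P14 CTL level.

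At lower levels the libraries drew further apart. Of 232 miRNAs from 10 to 100 RPM, 130 were below and 32 above by RPM (65 and 73 by TMM). Of 273 under 10 RPM, 212 were below and 10 above, and 145 and 41 by TMM. The median log2 ratio was -0.18 at 1000 RPM or more, -0.22 from 100 to 1000 RPM, -0.40 from 10 to 100 RPM and -0.76 under 10 RPM. In the 5 other pairs of libraries of the series the median under 10 RPM lay between -0.21 and 0.30. Most low-level miRNAs stood higher in the P14 CTL choroid than in any other choroid library. Of the 273 under 10 RPM, 214 (78.4%) had their highest level of the 6 there, and 9 in the OIR library. Their median log2 distance from the middle of the 4 other choroid libraries was 1.27 in CTL and 0.39 in OIR. These 273 were kept by their UMIs in the 2 P14 choroid libraries, and an unlisted level elsewhere was set to 10 UMIs. The counts and distances are therefore partly set by that filter.

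**Figure D4:**
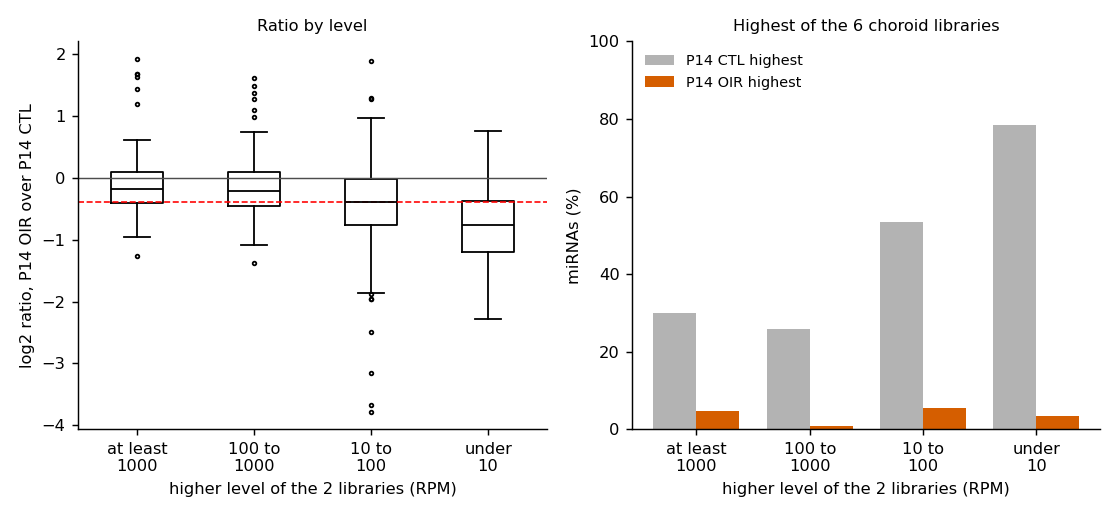
Left, log2 ratio of OIR over CTL in the P14 choroid (y axis) by the higher level of the 2 libraries (x axis, RPM): boxes are quartiles with the median, whiskers reach to 1.5 box lengths and points lie beyond, and the dashed line is a ratio of 1 under TMM. Right, percent of the miRNAs of each level that were highest of the 6 choroid libraries in the P14 CTL or the P14 OIR library, up to 78.4% for CTL under 10 RPM. The miRNAs were kept by their UMIs in these 2 libraries, which favours them at low levels.

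The highest from 10 to 100 RPM were miR-183-3p, miR-3578 (44 and 110 UMIs, 2.45), miR-135b-5p (38.4 and 92.6 RPM, 2.41), miR-153-3p, miR-3574 (1.80) and miR-7b (1.74). The lowest were miR-1843b-3p (175 and 13 UMIs, 0.0728), miR-489-5p (363 and 29 UMIs, 0.0783), miR-32-3p (552 and 63 UMIs, 0.112), miR-883-3p (210 and 38 UMIs, 0.177), miR-3580-3p (149 and 39 UMIs, 0.257) and miR-299b-3p (313 and 82 UMIs, 0.257). These 6 were chosen for their low ratios, which favours members with a high level in CTL. For each of the 6 the level of the P14 CTL library was the high one. miR-489-5p was at 40.2 RPM there, 3.15 in P14 OIR, and 1.43, 2.54, 2.39 and 3.16 in the P7 and P17 choroids. miR-883-3p lies on the X chromosome beside the miR-743 hairpins. 16 miRNAs with 21 to 37 UMIs were listed in the CTL library only, with ratios of at most 0.265 to 0.467, among them miR-758-5p, miR-328a-5p, miR-31b and miR-509-5p. No miRNA with at least 20 UMIs was listed in the OIR library only.

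The balance of the 5p and 3p arms of 1 hairpin depends on no scaling between libraries. It could be compared in 207 hairpins with at least 20 UMIs from each arm in both libraries. In 21 (10.1%) it moved more than 2-fold, each beyond counting error, and the same arm led in both libraries in 200. The minor arm was lower than its major arm, relative to CTL, in 134 of 207, with a median difference of -0.19 in the log2 ratio. It was lower by more than 2-fold in 17 and higher by more than 2-fold in 4.

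The largest change was that of miR-32. In CTL the 5p arm had 647 UMIs and the 3p arm 552, or 46.0% of the hairpin, and in OIR 1053 and 63, or 5.65%. The log2 of 5p over 3p UMIs moved from 0.23 to 4.06, a difference of 3.83 (3.43 to 4.24), and was between 3.03 and 3.76 in the other choroid libraries. Next toward the 5p arm were miR-299b (2.35), miR-3580 (2.11), miR-139 (1.38), miR-135b (1.15) and miR-3590 (1.05). Toward the 3p arm moved miR-489, from 86.6% to 46.0% 5p (-2.93), miR-410, from 83.5% to 57.9% 5p (-1.89), miR-210 (-1.65), miR-153 (-1.58), miR-214 (-1.48) and miR-137 (-1.45). The 21 hairpins were chosen by the difference between the P14 CTL and OIR libraries. That choice by itself tends to put 1 of these libraries outside the choroid range. In 15 of the 21 hairpins the CTL library lay outside the range of the other 5 choroid libraries, and the OIR library in 6. Over all 201 hairpins with values in every choroid library, CTL lay outside in 84 (41.8%) and OIR in 47 (23.4%), so the OIR share among the 21 (28.6%) was near that of all hairpins, and the CTL share (71.4%) above it.

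The sequences themselves differed in composition. Across the 648 miRNAs with a sequence, Spearman's rho of the G and C content with the log2 ratio was -0.35. It was -0.47 for the 79 at or over 1000 RPM, -0.46 for 116 from 100 to 1000 RPM, -0.35 for 213 from 10 to 100 RPM and -0.09 for 240 under 10 RPM. All points share the same 2 libraries. The median log2 ratio was -0.18 for 231 miRNAs under 45% G and C, -0.46 for 260 from 45% to 55%, and -0.62 for 157 at 55% or more. In the printed examples let-7b-5p (45.5%) and miR-206-3p (45.5%) have more G and C than let-7f-5p and miR-1-3p (31.8% each), their partners of the same seed with the higher ratio, but miR-210-3p, with 63.6%, had a ratio of 1.98. The part of composition in the ratios was not tested.

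tRNA-derived RNAs, most of them cut from mature tRNA, were higher in CTL. The CTL library listed 1018072 tRNA UMIs and the OIR library 358589, while miRNA UMIs were within a few percent of each other. Relative to miRNA UMIs, 261 of 281 tRNA features (92.9%) were below and 2 (0.712%) above, with a median log2 ratio of -1.10. Those of glycine tRNA with the GCC anticodon, which gave most fragments, had 561189 UMIs in CTL and 228142 in OIR, a ratio of 0.399. GlyCCC had 178849 and 45504 UMIs (0.250), ValCAC 93317 and 18975 (0.199), ValAAC 54624 and 11963 (0.215) and LysCTT 23164 and 7219 (0.306). AspGTC was less changed at 16456 and 9780 UMIs (0.583), as was LysTTT at 10815 and 5427 (0.492).

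Within tRNA the makeup changed too. GlyGCC held 55.1% of the tRNA UMIs in CTL and 63.6% in OIR, and GlyCCC 17.6% and 12.7%. ValCAC held 9.17% and 5.29%, against 1.94% to 4.69% in the other choroid libraries, and AspGTC 1.62% and 2.73%, against 2.53% to 10.4%. Of 49 single loci with at least 1000 UMIs, 14 were above and 16 below relative to all tRNA UMIs (median log2 ratio -0.01), while 48 were below relative to miRNA UMIs. On the latter scale the lowest included a ValAAC locus of chromosome 10 (3166 and 356 UMIs, 0.110) and a ValCAC locus of chromosome 17 (72690 and 12251 UMIs, 0.165). The highest was an AspGTC locus of chromosome 7 (7943 and 6525 UMIs, 0.806, or 2.33 relative to tRNA UMIs). Loci of 1 anticodon share sequence, so a read can be assigned to more than 1 of them.

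**Figure D5:**
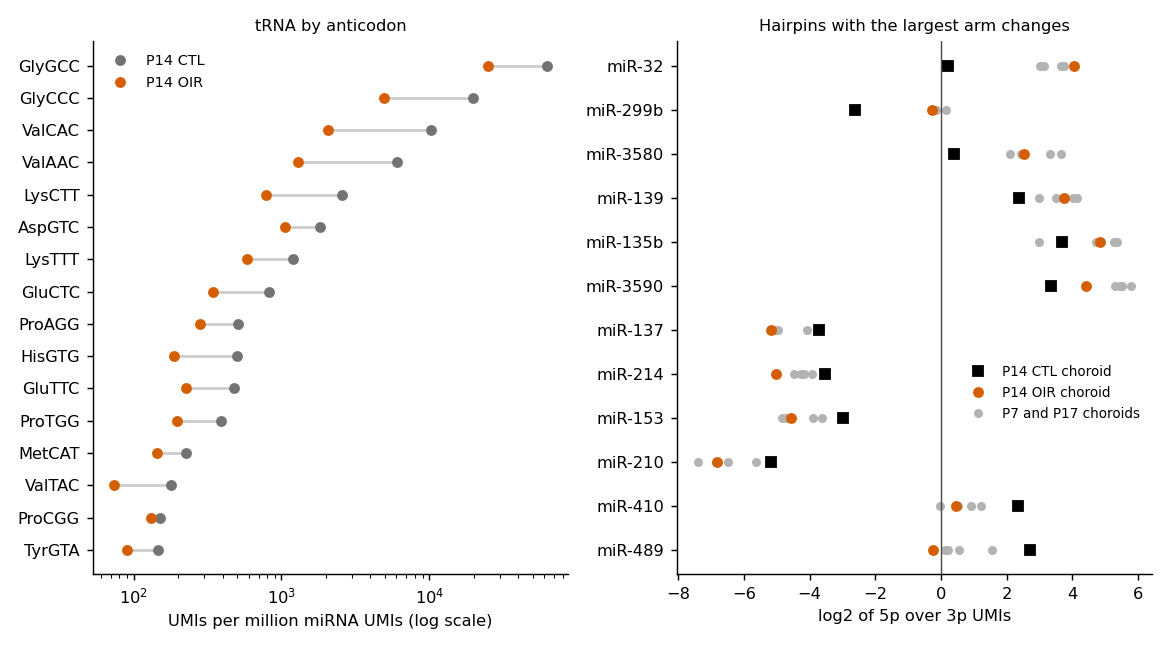
Left, RPM (log scale, x axis) of tRNA features summed by anticodon (y axis) in the P14 CTL (grey) and P14 OIR (orange) choroid; OIR lies to the left for all 16, from 0.199 times the CTL level for ValCAC to 0.869 for ProCGG. Right, log2 of 5p over 3p UMIs (x axis) of the 12 hairpins with the largest arm changes (y axis) in the P14 CTL (squares), P14 OIR (orange) and other choroid (grey) libraries, where the CTL library stands apart from the rest for miR-32, miR-299b and miR-3580.

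piRNAs, which silence transposons in the germ line, are named here as the database names them, and short tRNA or rRNA pieces can carry such a name. The CTL library listed 156 and the OIR library 84. Of 95 with at least 20 UMIs, 68 (71.6%) were below and 9 (9.47%) above relative to miRNA UMIs. Relative to all piRNA UMIs, 36 were above and 29 below (median log2 ratio -0.06). The most abundant, rno_piR_005901, had 9096 UMIs in CTL and 2022 in OIR (0.218), or 21.3% and 9.08% of the piRNA UMIs. Among those with at least 100 UMIs the lowest was rno_piR_005359, with 766 and 70 UMIs (0.0896), followed by rno_piR_021540 (0.185). The highest were rno_piR_000821 (188 and 410 UMIs, 2.14, 1.80 to 2.56) and rno_piR_005556 (777 and 1137 UMIs, 1.44).

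The other read classes moved the same way as tRNA relative to miRNA reads, by ratios of 0.365 for rRNA, 0.528 for mRNA, 0.303 for other RNA and 0.496 for mappable reads of no class. Reads too short to assign were at 0.959, and miRNA hairpin reads were the exception at 1.60 (1.55 to 1.64), from 7990 in CTL and 12875 in OIR. The CTL library, which was higher in these classes, was also the one that stood apart in the low-level miRNAs and in the minor arms. The study's methods say that RNA integrity was checked and was high in all samples, without a value for each library. The part of RNA quality in these ratios was not tested.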

How the data were processed

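Each library holds small RNA of 5 pooled tissues. The authors deposited raw counts per library: reads of each RNA class, and reads and UMIs of each miRNA, piRNA, tRNA and other RNA with at least 10 UMIs. Their processing notes name bcl2fastq 2.20, cutadapt, Bowtie and build Rnor_6.0; the counting tool and parameters are not given in the sources used here. The labels name the QIAseq miRNA kit, which adds UMIs, and the paper another kit.

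From the deposited counts, levels were UMIs per 1000000 miRNA UMIs and ratios carry exact conditional (Clopper-Pearson) 95% intervals for counting error. 1 UMI is 0.111 RPM in CTL and 0.109 in OIR, and the bound of 10 UMIs 1.11 and 1.09 RPM. Intervals of arm differences are normal approximations from the 4 counts. TMM used edgeR 4.0.16 and size factors DESeq2 1.42.0, for scaling only. The ratio and its interval were tested on simulated data. Python 3.11.15, numpy 2.4.6, pandas 2.3.3 and scipy 1.17.1 were used.

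The comparison, the 19 lists (150 names, 3 not matched) and the rule for named miRNAs were chosen with earlier results of these data known. The rule took the 12 highest and lowest ratios at 1000 RPM or more, 8 and 8 from 100 to 1000 RPM, 6 and 6 from 10 to 100 RPM (the last 2 where the interval excludes 1), the 10 most abundant of each library, list members, the 6 largest arm changes each way, the 5 highest and lowest tRNAs, up to 5 piRNAs each way and miRNAs listed in 1 library only. Pairs whose ratio within a library is given, miR-190b-5p, miR-873-5p and miR-130b-3p were chosen after their values were seen. Alternatives were other scalings, reads in place of UMIs, other thresholds and filters, and leaving out retina-enriched miRNAs. Unnamed tRNA identifiers are not described.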

Additional observations from a re-analysis of the deposited data

Results flagged for a closer look

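By RPM, 6 lists had median log2 ratios past the threshold on opposite sides in the choroid at P14 and at P7. Each age has 1 pair of libraries, so the difference was not tested. The photoreceptor cluster was at 1.68 at P14 and -1.39 at P7, with 5 of 5 members higher at P14 and 5 of 5 lower at P7. The neuronal list was at 0.96 and -1.10. On the other side were the pigment epithelium list, at -0.67 and 0.49, the mesenchymal and mural list, at -0.35 and 1.22, the surface epithelium list, at -0.51 and 1.86, and the miR-23-27-24 clusters, at -0.61 and 0.83. In the pigment epithelium list only the minor arms miR-204-3p (0.424) and miR-211-3p (0.494) were below 0.8 at P14. The P14 median over all 720 miRNAs was -0.44 by RPM, near those of the lower lists. By TMM the P14 medians were 2.07, 1.34, -0.28, 0.04, -0.12 and -0.22 in the same order. None of the lists on the lower side was then past 0.8, so their flag at P14 depends on the scaling. The P7 medians were taken by RPM only, so how far they depend on the scaling was not tested. In the P7 choroid the retina-enriched miRNAs took 35.6% of the miRNA UMIs in CTL and 14.3% in OIR.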

How the results depend on the processing

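Each group has 1 library, so none could be left out, and animal to animal spread is unknown in these libraries. The study also measured selected miRNAs in single animals by quantitative PCR, which is not used here. No paired analysis was possible because each group has 1 library. Scaling set most counts. Of highly expressed miRNAs, 42 were above 1.2 by TMM and 42 by DESeq2 size factors, and 7, 6 and 18 were below 0.8 by TMM, size factors and total reads, against 16 and 30 by RPM. Without retina-enriched miRNAs, which then also left the denominator, 19 were below. The median log2 ratio of these miRNAs was 0.20 by TMM, 0.23 by size factors, -0.01 by total reads, -0.08 by all listed UMIs, -0.19 by reads and -0.08 without retina-enriched miRNAs. From 100 to 1000 RPM, TMM gave 55 above and 14 below and total reads 26 below. From 10 to 100 RPM, TMM gave 73 above and 65 below. By reads of the class the tRNA share was 9.90% in CTL and 3.64% in OIR. Relative to all tRNA UMIs, 42 tRNAs were below and 168 above, in place of 261 and 2. The mesenchymal and mural median turned to 0.04 by TMM. So did single ratios below 0.8, to 1.05 for let-7a-5p, 1.00 for miR-1-3p, 1.03 for miR-199a-5p, 1.01 for miR-221-5p, 1.01 for miR-27b-3p, 1.05 for miR-34b-3p, 1.01 for miR-486, 1.01 for miR-495 and 1.02 for miR-93-5p. Reads in place of UMIs kept 180 of 187 named ratios within their counting interval and turned none.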

Other observations

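Some ratios of 2 miRNAs within a library, chosen after their values were seen, had the same direction outside the P14 choroid. Others turned. miR-182 over miR-126a-3p was higher in OIR in 3 of 6 pairs of libraries and lower in 3. miR-142-3p over miR-126a-3p was higher in 5 but lower in the P17 choroid (OIR over CTL 0.585). miR-126a-3p over miR-143-3p was higher in 4 and lower in 2, among them the P7 choroid (0.885). miR-205 over miR-203a-3p was lower in OIR beyond counting error in 5 of 6 pairs, and not in the P17 retina, where OIR over CTL was 0.966 (0.794 to 1.17): 1.18 and 0.684 (CTL and OIR), 0.874 and 0.286, and 0.405 and 0.162 in the P7, P14 and P17 choroid, and 0.903 and 0.240, 0.274 and 0.116, and 0.149 and 0.144 in the P7, P14 and P17 retina. Both are miRNAs of surface epithelium, and miR-205 was at 17.2 to 31.5 RPM in 5 of the 6 retina libraries. miR-206-3p over miR-1-3p was lower in OIR beyond counting error in all 6 pairs, at 2.90 and 2.66, 2.00 and 1.39, and 1.2 and 0.923 in the choroid, and 2.62 and 1.82, 5.03 and 2.30, and 2.41 and 1.59 in the retina.

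let-7b-5p over let-7f-5p was lower in OIR in 5 of 6 pairs. It went from 0.242 to 0.165 in the P17 choroid and from 0.0854 to 0.0582, 0.0779 to 0.0477 and 0.0742 to 0.0572 in the P7, P14 and P17 retina, and from 0.107 to 0.129 in the P7 choroid. All 9 let-7 members had a ratio under 1 by RPM in the P14 and P17 pairs of both tissues, with medians of -0.55 and -0.80 in the choroid and -0.74 and -0.37 in the retina. At P7, 3 of 9 were higher in OIR in the choroid (median -0.25) and none in the retina (-0.42).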
